A study of Mus musculus with 6 samples.

Results

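The genes described here are those of the unfolded protein response and the integrated stress response, the pathways by which a cell adjusts when unfolded protein collects in the endoplasmic reticulum (ER) or when amino acids run short. A list of 42 genes was matched by gene symbol to a table of 14774 genes, and 40 of them were found. All 40 were abundant enough to be tested, out of 11939 genes tested in all, while Vldlr and Derl3 were not analysed here. RNA sequencing had been carried out on 2 lines of mouse Leydig tumor cells with 3 libraries each, MA-10 with the wild type genotype and STARKO1. STARKO1 is 1 clone, grown from a single MA-10 cell after CRISPR/Cas9 was directed at the part of Star that encodes the mitochondrial targeting sequence of its protein, and both lines were untreated. The sequencing asked which genes differ between the lines, and a difference between a parent line and 1 clone cannot be told apart from a difference due to the lost gene. The study's general statistics statement speaks of independent experiments, but neither it nor the labels say so of these libraries in particular, so the p-values below measure the spread between these libraries, which may be technical.

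The ER membrane carries 3 sensors of unfolded protein. PERK, the product of Eif2ak3, phosphorylates the initiation factor eIF2, which lowers most protein synthesis but favours translation of the transcription factor ATF4. IRE1, the product of Ern1, splices the Xbp1 mRNA into the form that encodes an active transcription factor, and ATF6 is released from the ER and cut in the Golgi to free its transcription factor domain. Together they raise chaperones, disulfide isomerases and the machinery that returns misfolded protein to the cytosol for degradation, and the integrated stress response shares the ATF4 branch with other kinases of eIF2. Leydig cells make steroids from cholesterol with enzymes of the mitochondria and of an extensive ER. Gene counts give the total mRNA of a gene and show neither the splicing of Xbp1, the cutting of ATF6 nor the translation of Atf4, and in bulk RNA fewer cells of a type and less RNA per cell cannot be told apart.

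Several of these genes carry known response elements in their promoters, and such elements are the sequences through which ATF6, XBP1 and ATF4 are known to act. Of 15 stretches that hold one, 9 are shown as examples, so that each of 4 motifs is seen. RefSeq promoters on GRCm38.p6, from 250 bases before to 50 bases after a start, were found for 38 of the 42 genes. Both strands were searched for the ER stress response element (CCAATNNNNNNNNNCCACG), its second form (ATTGGNCCACG), the composite site of ATF4 and CHOP (TGATGNAA) and the core of the cAMP response element (TGACGT), and the search covered the 250 bases before the start. Each stretch is written 5′ to 3′ on the strand of its gene, with the matched letters in capitals.
Calr, chr8:84847065-84847103, minus strand: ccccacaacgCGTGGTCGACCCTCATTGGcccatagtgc
Creld2, chr15:88819510-88819548, plus strand: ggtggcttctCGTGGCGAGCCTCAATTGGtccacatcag
Pdia6, chr12:17266481-17266519, plus strand: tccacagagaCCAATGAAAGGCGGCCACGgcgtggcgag
Syvn1, chr19:6046522-6046560, plus strand: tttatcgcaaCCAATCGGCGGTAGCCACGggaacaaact
Herpud1, chr8:94386307-94386397, plus strand: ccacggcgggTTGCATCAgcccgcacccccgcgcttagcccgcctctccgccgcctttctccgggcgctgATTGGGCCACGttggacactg
Atf3, chr1:191183426-191183453, minus strand: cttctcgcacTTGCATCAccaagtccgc
Chac1, chr2:119351039-119351066, plus strand: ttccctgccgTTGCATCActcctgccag
Asns, chr6:7693215-7693242, minus strand: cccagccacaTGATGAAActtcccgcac
Ppp1r15a, chr7:45526269-45526290, minus strand: gcctctccggTGACGTCAgcac
The ER stress response element was found in 6 of the 38 (Calr, Canx, Creld2, Derl3, Pdia6 and Syvn1), against 0.13% of 27025 genes (0.113% of 32851 promoters, since a gene can have several). Its second form was found in Herpud1 and in 0.037% of all genes (0.0304% of promoters). The composite site was found in 5 (Asns, Atf3, Chac1, Herpud1 and Vldlr), against 3.91% of all genes (3.45% of promoters), and the cAMP response element core in 5 (Atf3, Canx, Nfe2l1, Ppp1r15a and Sec24d), against 7.29% (6.47% of promoters). The matches in Calr and Creld2 are in reverse orientation, as are the composite sites of Atf3, Chac1 and Herpud1. A match is a run of letters and not a shown binding site.

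The total count was between 14114351 and 19530062 per library, and no member had fewer than 90 counts in any library. Levels are given as CPM, the count relative to a library size scaled by edgeR's TMM method and set to a common total. Star, the targeted gene, averaged 2.26 ± 0.386 CPM (SD, n = 3) in STARKO1 and 77.1 ± 27.8 CPM (SD, n = 3) in MA-10. All 10 Leydig markers examined were present, with a summed level of 2142 to 2750 CPM in MA-10 and 1790 to 1866 CPM in STARKO1. Single Leydig markers moved in both directions. Cyp11a1, Hsd3b1, Hsd3b6 and Lhcgr were lower in every STARKO1 library, Cyp17a1 and Nr5a1 were higher in every one, and the others overlapped. Hsd3b1 averaged 29.7 CPM in MA-10 and 5.18 CPM in STARKO1, and Nr5a1 471 and 632 CPM. Of the markers of Sertoli, germ, macrophage, endothelial and peritubular myoid cells, 11 of 31 were present, and the Sertoli markers, led by Rhox5, summed to 337 to 529 CPM in MA-10 and 574 to 596 CPM in STARKO1. The rest, Sox9, Amh and Ptprc among them, were not analysed here. The 2 endothelial markers, led by Cdh5, summed to 26.4 to 41.4 CPM in MA-10 and 118 to 124 CPM in STARKO1. The 2 myoid markers, led by Des, summed to 13.0 to 20.4 CPM and 1.72 to 2.59 CPM. Pecam1 and Myh11, the other marker of each pair, averaged at most 0.728 CPM in either line. The marker sums differed between the lines, and their part in the differences below was not tested. The MA-10 libraries did not all group by their label. MA-10 replicate 1 correlated with the STARKO1 libraries at r = 0.949 to 0.955 over 8536 genes, but with MA-10 replicates 2 and 3 at r = 0.802 and 0.874. MA-10 replicates 2 and 3 correlated with each other at r = 0.974 and with the STARKO1 libraries at r = 0.779 to 0.850. Their TMM factors were 0.654 and 0.805, against 1.16 to 1.19 in the other libraries. Which MA-10 libraries are typical of the line cannot be told. The share of the 7SL RNA was 1.81% in MA-10 replicate 1, 14.4% in replicate 2 and 6.63% in replicate 3, with STARKO1 at 1.82% to 2.37%, and genes of ribosomal proteins took 4.04%, 8.07% and 7.17% against 3.76% to 3.93%. These shares move with the differences between the MA-10 libraries below, and their part in them was not tested.

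No gene of the list rose in STARKO1 cells and 5 fell, namely Ddit3, Trib3, Atf3, Xbp1 and Ero1l. They are 12.5% of the 40 tested, while 9.04% of all genes tested were called in either direction, 4.74% were called lower and 4.3% higher (edgeR's quasi-likelihood test, adjusted p under 0.05). In 15 of the 40 every STARKO1 library lay below every MA-10 library, and in 4 every STARKO1 library lay above. This is 47.5% without overlap against 42.4% of all genes, of which 20.9% lay below and 21.5% above. At an unadjusted p under 0.05, 15 members were lower and 2 higher, which is 42.5% against 37.6% of all genes (22.7% lower). The median log2 fold change of the members was -0.26, where that of all genes was -0.05, and the members ran from -3.28 (Ddit3) to 0.73 (Atf6b). A share near that of all genes is not a result about the list, and what follows describes its members one arm at a time.

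**Figure D1:**
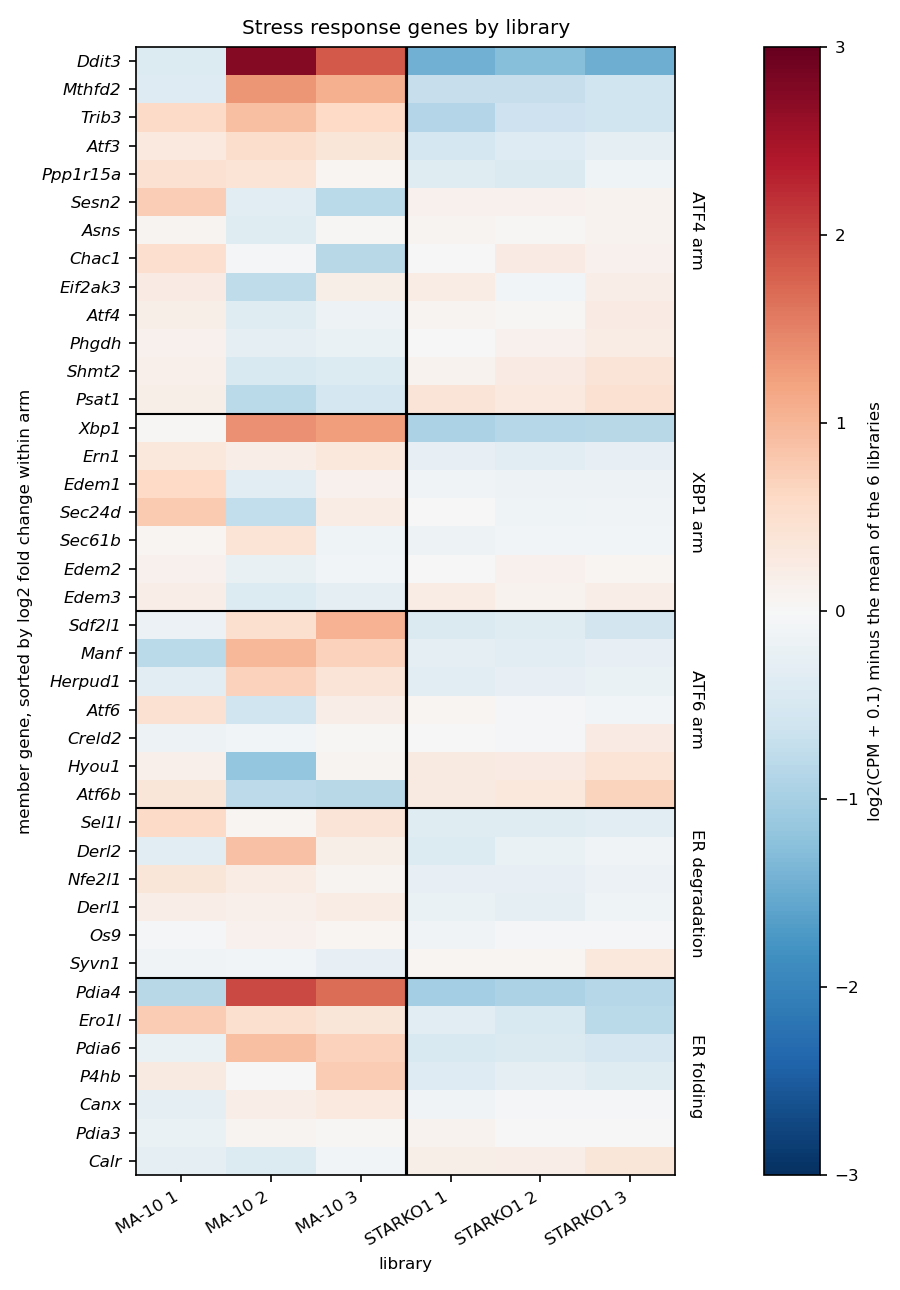
Level of each of the 40 members (rows, grouped by arm and sorted by log2 fold change) in each library (columns), as log2(CPM + 0.1) minus the mean of the 6 libraries. Ddit3, Mthfd2, Xbp1 and Pdia4 are high in MA-10 replicates 2 and 3 and lower in MA-10 replicate 1, whereas Trib3, Atf3, Ern1 and Ero1l differ less among the MA-10 libraries. All of these genes are higher in each of the 3 MA-10 libraries than in any STARKO1 library.

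The ATF4 arm held 3 of the 5 genes that fell, all of them textbook targets of ATF4, and not Atf4 itself. Atf4 (chromosome 15, 80255184 to 80257541, plus strand), the transcription factor at the head of the arm, was at 347, 240 and 277 CPM in MA-10 replicates 1, 2 and 3 and at 324, 315 and 365 CPM in STARKO1 replicates 1, 2 and 3. The lines overlapped, and the log2 fold change of STARKO1 relative to MA-10 was 0.22 (SE 0.206, edgeR adjusted p = 0.454). Eif2ak3, the kinase PERK upstream of it, was at 26.3, 13.1 and 25.2 CPM in MA-10 and at 25.8, 21.1 and 25.4 CPM in STARKO1, again with overlap (log2 fold change 0.16, SE 0.281, edgeR adjusted p = 0.685).

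Ddit3 (chromosome 10, 127290774 to 127296288, plus strand), which encodes CHOP, a transcription factor that promotes cell death under lasting ER stress, was at 132, 1170 and 630 CPM in MA-10 and at 64.3, 71.7 and 62.9 CPM in STARKO1. The STARKO1 libraries lay together below all 3 MA-10 libraries, but the MA-10 libraries spanned a wide range, with replicate 1 nearest to STARKO1. The mean was 644 ± 519 CPM (SD, n = 3) against 66.3 ± 4.72 CPM (SD, n = 3), a ratio of 9.71, and the log2 fold change was -3.28 (SE 0.722, edgeR adjusted p = 0.0411). Against MA-10 replicate 1 alone the log2 difference was -0.99 and against replicates 2 and 3 it was -3.69. Ddit3 overlaps Mars on the opposite strand. The strand setting of the counting is not given in the sources used here, and Mars was at 161 CPM in MA-10 and 203 CPM in STARKO1.

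Trib3 (chromosome 2, 152337422 to 152344032, minus strand), a pseudokinase induced by ATF4 and CHOP that dampens ATF4, was at 74.0, 93.3 and 75.4 CPM in MA-10 and at 27.0, 32 and 33.0 CPM in STARKO1. Here MA-10 replicate 1 lay with the other MA-10 libraries. The ratio of the means was 2.64 and the log2 fold change -1.40 (SE 0.174, edgeR adjusted p = 0.00794), with -1.27 against replicate 1 and -1.45 against replicates 2 and 3. Atf3 (chromosome 1, 191170296 to 191218039, minus strand), a stress-induced transcription factor whose promoter holds both the composite site shown above and a cAMP response element core, was at 11.6, 13.6 and 12.1 CPM in MA-10 and at 6.4, 7.13 and 7.69 CPM in STARKO1. It followed the same arrangement as Trib3 at a lower level, and its log2 fold change was -0.81 (SE 0.170, edgeR adjusted p = 0.0369).

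The other members of the arm did not pass the test. Mthfd2, a mitochondrial enzyme of one-carbon metabolism, was at 200, 654 and 554 CPM in MA-10 and at 162, 163 and 174 CPM in STARKO1, so that all STARKO1 libraries were lower but MA-10 replicate 1 lay near them (log2 fold change -1.50, SE 0.421, edgeR adjusted p = 0.0644). Ppp1r15a, the phosphatase subunit GADD34 that removes the phosphate from eIF2, was at 60.0, 57.6 and 45.7 CPM against 34.0, 32.2 and 40.0 CPM, with no overlap (log2 fold change -0.62, SE 0.177, edgeR adjusted p = 0.0658). The enzymes of serine, glycine and asparagine synthesis, which are textbook targets of ATF4, had estimates above 0. Psat1, an enzyme of serine synthesis and the member of the arm with the highest estimate, was at 229, 116 and 142 CPM in MA-10 and at 264, 250 and 280 CPM in STARKO1 (log2 fold change 0.71, SE 0.275, edgeR adjusted p = 0.114). The log2 fold changes of Shmt2, Phgdh and Asns were 0.46, 0.24 and 0.14, and in these 3 the lines overlapped. The glutathione-degrading enzyme Chac1 and the metabolic regulator Sesn2 overlapped as well, at 0.16 and 0.10. The ATF4 arm had 3 of 13 tested members lower (23.1%, against 4.74% of all genes), none higher and a median log2 fold change of 0.14. With 1 library left out, between 0 and 11 of the 13 passed, while 0.73% to 65.7% of all genes did. The 11 passed without MA-10 replicate 1, where the share of all genes was 65.7%, and were 5 lower and 6 higher.

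In the XBP1 arm 1 of 7 members (14.3%) fell, Xbp1 itself, and none rose, while 4.74% of all genes were called lower and 4.3% higher. A count of 1 is not a result about the arm. Xbp1 (chromosome 11, 5520659 to 5525893, plus strand) was at 59.4, 151 and 139 CPM in MA-10 and at 30.1, 32.2 and 32.6 CPM in STARKO1. All 3 MA-10 libraries were higher than the STARKO1 libraries, and MA-10 replicate 1 lay between the rest of its line and STARKO1. The mean was 116 ± 49.7 CPM (SD, n = 3) against 31.6 ± 1.30 CPM (SD, n = 3), a ratio of 3.68, with a log2 fold change of -1.88 (SE 0.349, edgeR adjusted p = 0.0269). The log2 difference was -0.91 against replicate 1 and -2.19 against replicates 2 and 3.

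Ern1 (chromosome 11, 106394650 to 106487852, minus strand), the sensor that splices Xbp1, had the smallest spread of the sensors, at 63.3, 58.4 and 63.3 CPM in MA-10 and at 42.6, 39.9 and 42.7 CPM in STARKO1. The lines did not overlap and MA-10 replicate 1 lay with its own line, yet the log2 fold change of -0.56 (SE 0.138) did not pass the test (edgeR adjusted p = 0.0517). The remaining members of the XBP1 arm overlapped between the lines. Edem3, one of 3 mannose-trimming factors that mark misfolded glycoproteins for degradation, had the highest estimate of the arm, at 105, 68.8 and 75.0 CPM against 106, 98.1 and 105 CPM (log2 fold change 0.31, SE 0.200, edgeR adjusted p = 0.275). Edem1, Edem2, the translocon subunit Sec61b and the vesicle coat subunit Sec24d had log2 fold changes of -0.32, 0.11, -0.23 and -0.30.

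**Figure D2:**
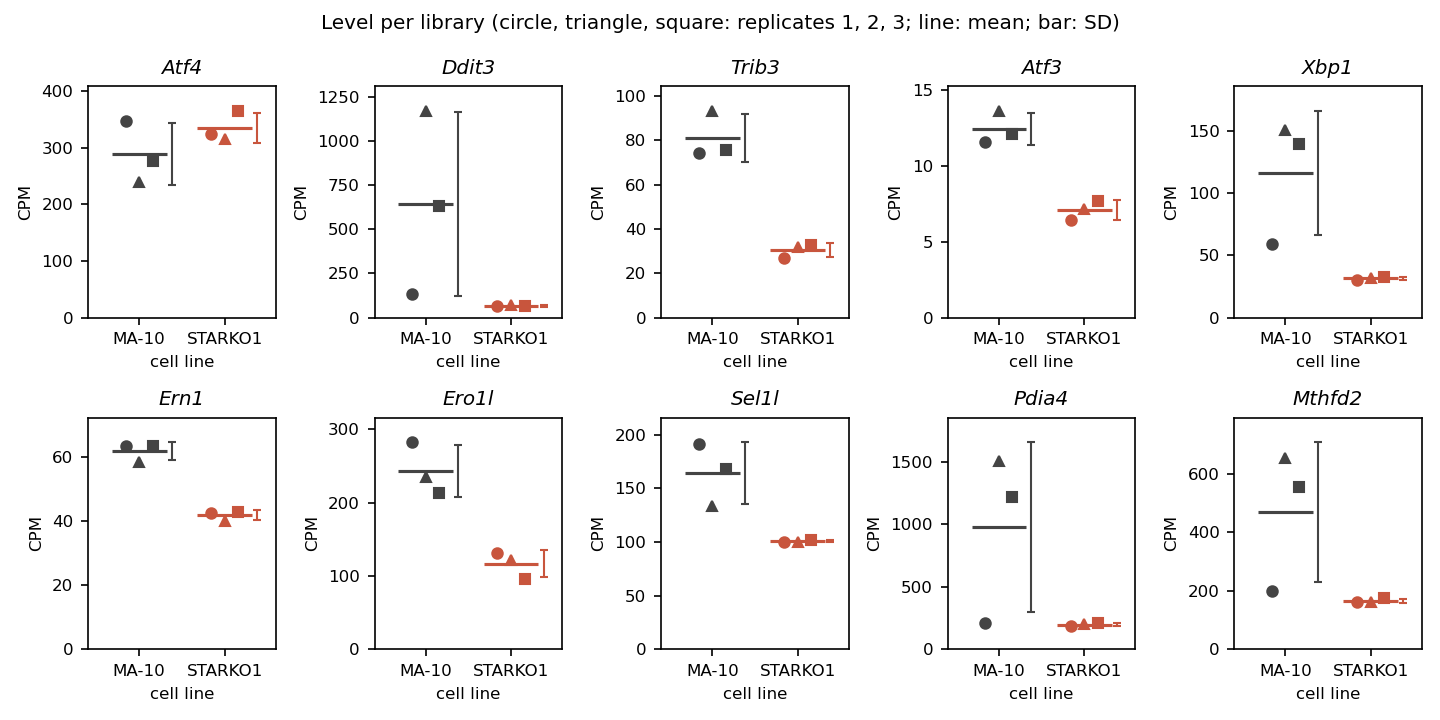
CPM of 10 members in each library, with MA-10 in grey and STARKO1 in red (circle, triangle and square are replicates 1, 2 and 3, the line is the mean and the bar beside it 1 SD on either side). Trib3, Atf3, Ern1, Ero1l and Sel1l separate the lines with MA-10 replicate 1 among its own line, whereas Ddit3, Pdia4 and Mthfd2 place MA-10 replicate 1 near STARKO1, and Atf4 overlaps between the lines.

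No member of the ATF6 arm passed the test, and 1 of 7 (14.3%), Sdf2l1, had an unadjusted p under 0.05, against 37.6% of all genes. Atf6, the sensor, was at 134, 64.9 and 113 CPM in MA-10 and at 102, 95.7 and 92.3 CPM in STARKO1, with overlap (log2 fold change -0.11, SE 0.271, edgeR adjusted p = 0.790). Atf6b, its weaker relative and the highest estimate of the whole list, was at 22.5, 10.1 and 9.85 CPM in MA-10 and at 21.3, 22 and 27.8 CPM in STARKO1. MA-10 replicate 1 lay inside the range of STARKO1 and the other MA-10 libraries lay below it (log2 fold change 0.73, SE 0.349, edgeR adjusted p = 0.169). Sdf2l1, a cofactor of the ER chaperone BiP and the lowest estimate of the arm, was at 10.6, 17.0 and 24.9 CPM against 8.94, 9.37 and 8.20 CPM, without overlap (log2 fold change -0.98, SE 0.310, edgeR adjusted p = 0.0779). Manf, a secreted ER stress protein, was at 52.2, 181 and 148 CPM in MA-10, below and above the 72.2 to 77.4 CPM of STARKO1. Its log2 difference was 0.51 against MA-10 replicate 1 and -1.13 against replicates 2 and 3, opposite in sign. Manf overlaps Rbm15b on its own strand, so that reads may have been divided between them, and Dcaf1 (61.5 CPM in MA-10 and 78.1 CPM in STARKO1) on the opposite strand. Herpud1, a scaffold of the degradation machinery whose promoter holds both sites shown above, was at 51.3, 103 and 83.4 CPM against 50.4 to 55.5 CPM, so that again MA-10 replicate 1 lay inside the STARKO1 range. The ER chaperone Hyou1 was higher in every STARKO1 library, with a log2 fold change of 0.51 (edgeR adjusted p = 0.287). In the secreted factor Creld2 the lines overlapped, with a log2 fold change of 0.14.

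No member of the ER degradation group passed the test either, and 3 of 6 (Sel1l, Derl1 and Nfe2l1) were lower in every STARKO1 library, as were 20.9% of all genes. Sel1l, the adaptor of the ubiquitin ligase HRD1, had the lowest estimate, at 191, 133 and 168 CPM in MA-10 and at 100, 99.9 and 102 CPM in STARKO1 (log2 fold change -0.71, SE 0.183, edgeR adjusted p = 0.0580). Derl1, a subunit of the retrotranslocation channel, was at 168, 163 and 172 CPM against 128, 122 and 135 CPM (log2 fold change -0.39, edgeR adjusted p = 0.111). Nfe2l1, an ER-bound transcription factor that induces proteasome subunits, was at 367, 331 and 304 CPM against 243, 241 and 252 CPM (log2 fold change -0.45, SE 0.171, edgeR adjusted p = 0.111). In these 3 genes MA-10 replicate 1 lay with its own line. Syvn1, the ligase HRD1 itself, had the highest estimate and lay the other way without overlap, at 14, 14.3 and 12.7 CPM against 15.7, 15.8 and 18.9 CPM (log2 fold change 0.30, SE 0.162, edgeR adjusted p = 0.215). Syvn1 overlaps Mrpl49 on the opposite strand, which was at 21 CPM in MA-10 and 33.3 CPM in STARKO1, and without the strand setting their reads cannot be told apart. In Derl2 and the lectin Os9 the lines overlapped, with log2 fold changes of -0.57 and -0.11. Derl2 has the same limit as Syvn1, since it overlaps Mis12 on the opposite strand (26.8 CPM in MA-10 and 24.4 CPM in STARKO1).

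Among the folding genes, 1 of 7 (14.3%) fell, while 4.74% of all genes were called lower. Ero1l (chromosome 14, 45283087 to 45318771, minus strand), the oxidase that recharges protein disulfide isomerases, was at 282, 235 and 213 CPM in MA-10 and at 131, 122 and 95.9 CPM in STARKO1. MA-10 replicate 1 was the highest of all libraries. The ratio of the means was 2.09 and the log2 fold change -1.07 (SE 0.204, edgeR adjusted p = 0.0292), with -1.29 against replicate 1 and -0.96 against replicates 2 and 3. Pdia4, a disulfide isomerase and the lowest estimate of the group, showed the opposite arrangement, at 211, 1501 and 1216 CPM in MA-10 and at 186, 197 and 207 CPM in STARKO1. Its log2 fold change was -2.31 (SE 0.654, edgeR adjusted p = 0.0655), with -0.10 against replicate 1 and -2.78 against replicates 2 and 3. Pdia6, another disulfide isomerase, was at 107, 229 and 199 CPM against 85.8 to 90.5 CPM (log2 fold change -1.01, edgeR adjusted p = 0.0662). P4hb, the most abundant disulfide isomerase per kilobase in STARKO1, was at 621, 524 and 874 CPM against 395, 424 and 403 CPM (log2 fold change -0.72, edgeR adjusted p = 0.0876). Both were lower in every STARKO1 library. Calr, the lectin chaperone calreticulin, was the only folding gene higher in every STARKO1 library, at 577, 524 and 654 CPM in MA-10 and at 781, 797 and 887 CPM in STARKO1 (log2 fold change 0.49, SE 0.201, edgeR adjusted p = 0.127). Its partner Canx and the isomerase Pdia3 overlapped, at -0.16 and 0.05. Of the analysed members with an ER stress response element or its second form, Calr, Canx, Creld2, Syvn1, Pdia6 and Herpud1, none passed the test, and their log2 fold changes ran from -1.01 to 0.49. No match to the 4 motifs was found in the windows of Ddit3, Trib3, Xbp1 or Ero1l.

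**Figure D3:**
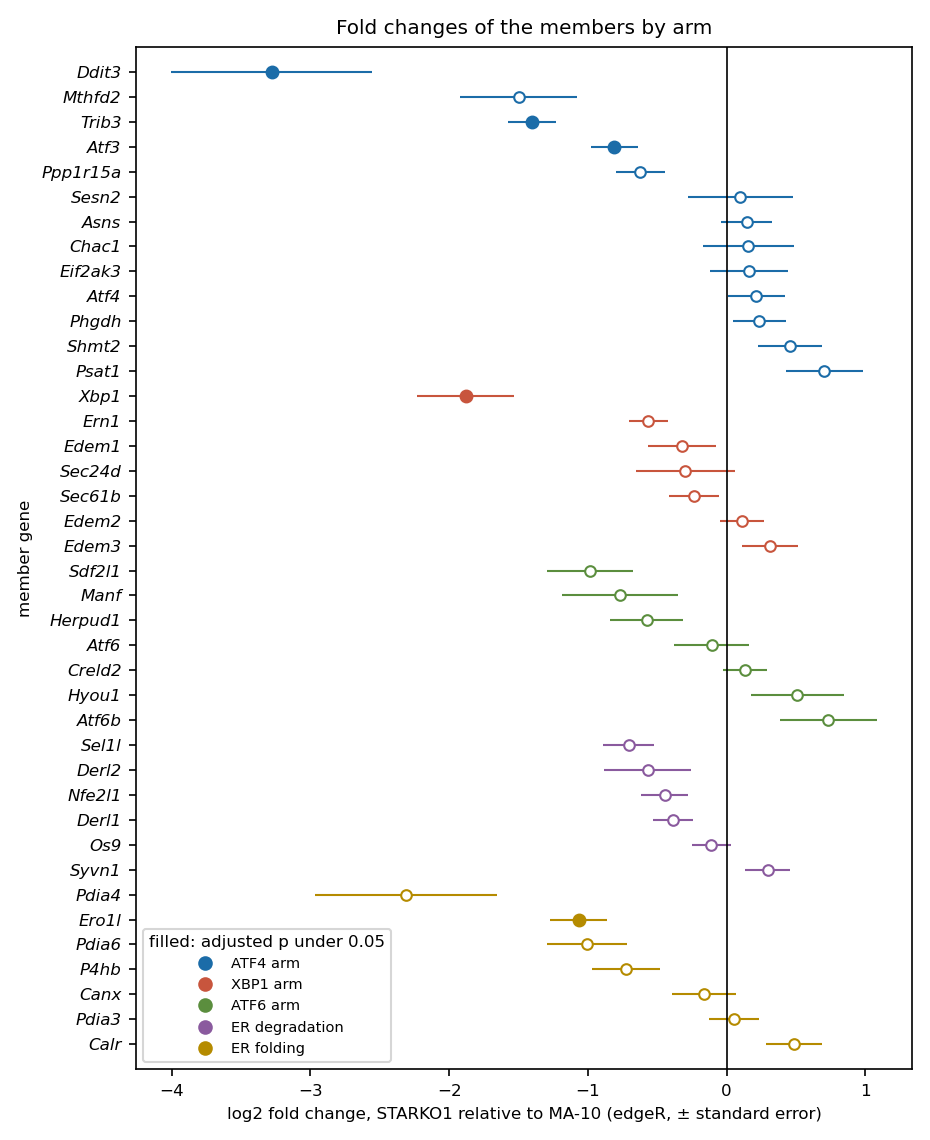
log2 fold change of STARKO1 relative to MA-10 (horizontal axis, bars are 1 standard error on either side, edgeR) for the 40 members (vertical axis), coloured by arm. The 5 filled points, Ddit3, Trib3, Atf3, Xbp1 and Ero1l, passed an adjusted p under 0.05 and all lie below 0.

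On a scale of CPM per kilobase of exon, which allows genes to be compared, the most abundant members in STARKO1 were Calr (285), Canx (177), P4hb (142), Atf4 (142) and Shmt2 (139). In MA-10 they were Pdia4 (407), Ddit3 (376), P4hb (235), Calr (203) and Canx (199). The first 2 led through MA-10 replicates 2 and 3. In replicate 1 Pdia4 was at 87.8 and Ddit3 at 77.0 CPM per kilobase, below P4hb (217), Calr (201), Canx (155), Atf4 (147) and Shmt2 (130). In STARKO1 Pdia4 and Ddit3 were at 82.0 and 38.7 CPM per kilobase, while by the means Calr, Canx and P4hb were among the 5 highest in both lines. With all 6 libraries, longer genes had somewhat higher fold changes. Spearman's rho between exon length and log2 fold change was 0.131 over 11884 genes and 0.117 over the 40 members. For the log2 difference of STARKO1 from MA-10 replicate 1 it was -0.057 and -0.048. Within MA-10, for replicates 2 and 3 minus replicate 1, it was -0.183 and -0.326. These are correlations across genes, which are not independent replicates, and the part of length in the differences was not tested.

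The members thus differed in where MA-10 replicate 1 lay. It was nearer to the STARKO1 mean than to the mean of MA-10 replicates 2 and 3 in 26 of the 40 (65.0%), against 69.9% of all genes. In the ATF4 and ATF6 arms this held for 10 of 13 and 6 of 7 members, and among degradation genes for 2 of 6. For the XBP1 arm and the folding genes it was 4 of 7 each. The median log2 difference of STARKO1 over the members was -0.15 against replicate 1 and -0.20 against replicates 2 and 3, where the medians of all genes were 0.00 and -0.01. Without MA-10 replicate 1, 29 of the 40 members passed the test, 18 lower and 11 higher, but so did 65.7% of all genes. The 11 higher were Atf4, Chac1, Phgdh, Psat1, Sesn2, Shmt2, Edem3, Atf6b, Hyou1, Syvn1 and Calr. All 5 genes that fell with the 6 libraries were also lower without it, with log2 fold changes of -3.67 for Ddit3, -1.37 for Trib3, -0.77 for Atf3, -2.11 for Xbp1 and -0.86 for Ero1l. When instead MA-10 replicate 2 was left out, of the 5 only Trib3 passed (edgeR adjusted p = 0.0180), with 4.19% of all genes called, and likewise without replicate 3 (edgeR adjusted p = 0.0422), with 1.49%. When STARKO1 replicate 1, 2 or 3 was left out, no member passed, and 0.73%, 1.11% and 0.76% of all genes did. The adjusted p of Trib3 was then 0.0794, 0.0663 and 0.0661 (edgeR). The highest adjusted p over the 6 such fits was 0.185 for Ddit3, 0.206 for Atf3, 0.147 for Xbp1 and 0.178 for Ero1l. The tool and the scaling also moved the count. DESeq2 called 16 members and 28.4% of all genes, upper quartile scaling 3 and 6.94%, and scaling by library size alone 1 (Xbp1) and 2.76%. With MA-10 replicate 1 as the only MA-10 library, a comparison added after the data were seen, 23 members and 40.5% of all genes were called.

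**Figure D4:**
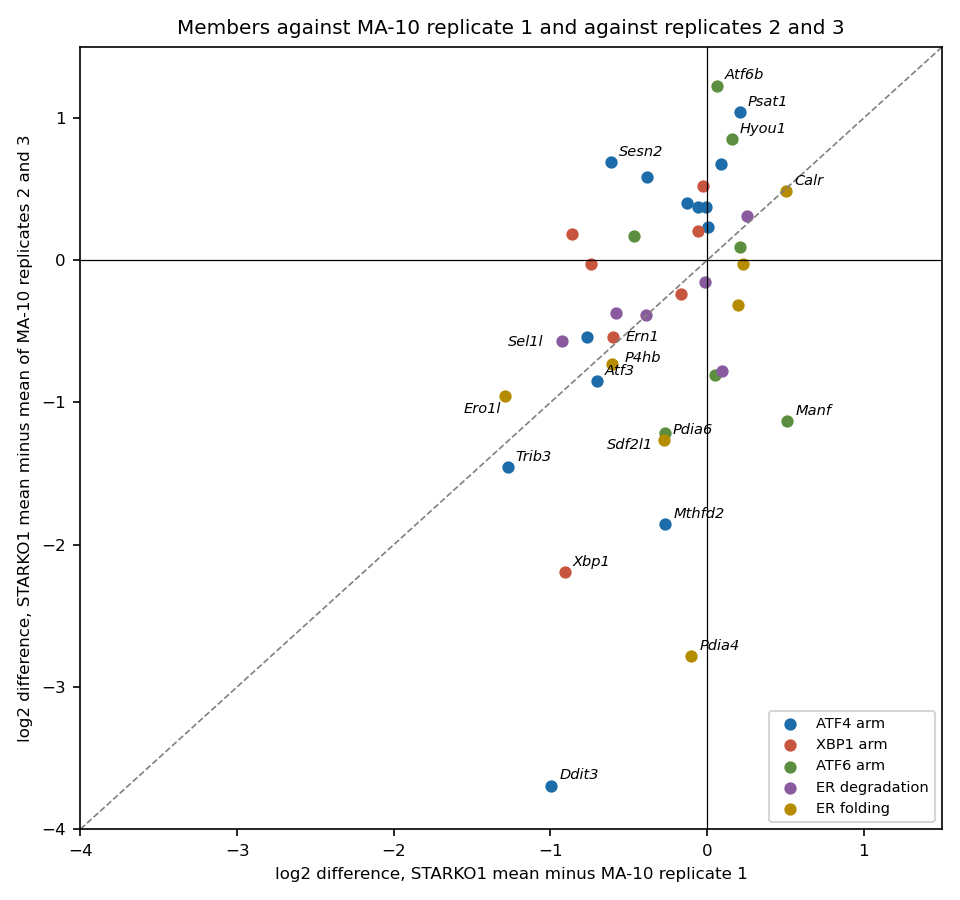
log2 difference of the STARKO1 mean from MA-10 replicate 1 (horizontal axis) and from the mean of MA-10 replicates 2 and 3 (vertical axis) for each member, coloured by arm, with the dashed line where both are equal. Trib3, Atf3, Ern1 and P4hb lie near the line below 0 on both axes, while Ddit3, Pdia4, Xbp1 and Mthfd2 lie far below it, with Pdia4 at -0.10 and -2.78.

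Another 97 genes of the same pathways, outside the list, were examined, of which 95 were tested. In STARKO1 cells 11 of them fell and 1 rose, which is 12.6% called against 9.04% of all genes, and their median log2 fold change was -0.28 where that of all genes was -0.05. The largest group was that of other ATF4 pathway genes, where 7 of 33 (21.2%) fell and none rose, against 4.74% of all genes called lower and 4.3% called higher. Pycr1, an enzyme of proline synthesis, was at 13.1, 23.8 and 17.0 CPM in MA-10 and at 2.62, 2.00 and 2.36 CPM in STARKO1 (log2 fold change -2.94, SE 0.280, edgeR adjusted p = 0.00371). Jdp2, a repressor related to ATF3, was at 17.7, 15.9 and 22.3 CPM against 3.18, 2.24 and 3.76 CPM (log2 fold change -2.60, SE 0.257, edgeR adjusted p = 0.00430). Both passed the test with any single library left out, which no member of the list did. Nupr1, a stress-induced chromatin protein, was at 61.6, 500 and 259 CPM against 29.5 to 33.0 CPM and had a log2 fold change of -3.14 (edgeR adjusted p = 0.0410). Eif4ebp1, a repressor of cap-dependent translation, and Cebpg, a dimer partner of ATF4, had -2.09 and -1.59. Nupr1, Eif4ebp1 and Cebpg were highest in MA-10 replicates 2 and 3, as Ddit3 was.

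None of the 11 eIF2 kinases, eIF2 and eIF2B subunits and regulators passed the test, and neither did any of 16 ER translocation and transport genes. At an unadjusted p under 0.05 there were 6 (54.5%) and 10 (62.5%) of them, against 37.6% of all genes. Of 16 other ER chaperones and cofactors, 2 fell and 1 rose, which is 18.8% called against 9.04% of all genes. Dnajb9, a cochaperone that keeps IRE1 inactive, was at 16.1, 41.1 and 41.3 CPM against 9.89, 10.2 and 10.1 CPM (log2 fold change -1.70, edgeR adjusted p = 0.0383), and Sil1, the nucleotide exchange factor of BiP, had a log2 fold change of -2.23 (edgeR adjusted p = 0.0422). Pdia5, a disulfide isomerase, was the gene that rose, at 21.2, 23.8 and 22.6 CPM in MA-10 and at 34.4, 34.1 and 35.8 CPM in STARKO1 (log2 fold change 0.62, edgeR adjusted p = 0.0430). Selenos, a selenoprotein of the degradation machinery, fell with a log2 fold change of -2.04 (edgeR adjusted p = 0.0457), alone among 12 other degradation genes. Wfs1, an ER membrane protein that restrains ATF6, was the only one of 7 genes of sensor processing to fall, with -0.82 (edgeR adjusted p = 0.0388). These 5 lost their call when MA-10 replicate 3 or any STARKO1 library was left out, and all but Wfs1 also without MA-10 replicate 2. Nupr1, Eif4ebp1 and Cebpg kept theirs only without MA-10 replicate 1.

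**Figure D5:**
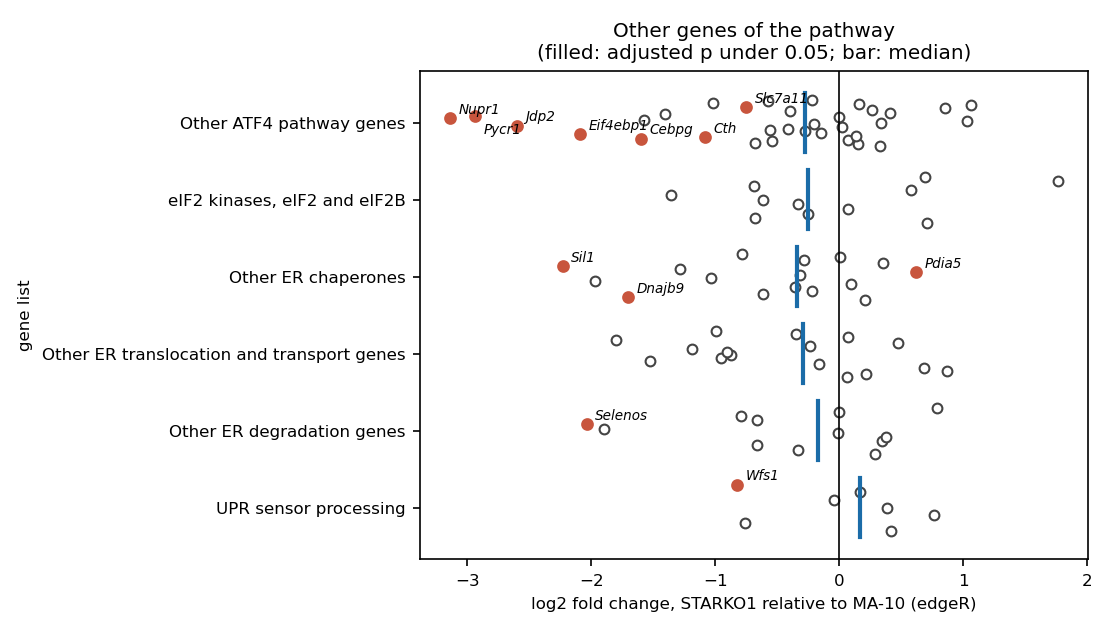
log2 fold change of STARKO1 relative to MA-10 (horizontal axis, edgeR) for the 95 tested pathway genes outside the list, by group (vertical axis). Filled and named points passed an adjusted p under 0.05, the blue bar is the median of a group, and Pdia5 is the only filled point above 0.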

How the data were processed

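Total RNA of 3 MA-10 and 3 STARKO1 libraries was sequenced after preparation with a stranded total RNA kit. The authors deposited estimated counts per gene on mouse build GRCm38 (mm10), not normalized, with replicates kept apart. The submitters' processing notes name STAR 2.6.1d and Partek, and the counting method is not given in the sources used here. Values were not whole for 54.2% of the genes and were rounded. Ends of genes are 1 base below the deposited stop, since this gave the GENCODE M21 start and end for 14595 genes.

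Genes were filtered with filterByExpr and scaled by TMM, and STARKO1 was compared with MA-10 by the quasi-likelihood test of edgeR 4.0.16 in R 4.3.3 over all 11939 genes, with Benjamini-Hochberg adjustment and a threshold of 0.05. The study's methods name no test for these counts. No set test was run. CPM are means ± SD over 3 libraries, each SE was obtained as the fold change on the log2 scale over the root of the F statistic, and the common biological coefficient of variation was 0.291. Differences from single MA-10 libraries are of log2(CPM + 0.1). The members, the other gene lists and the tests were chosen with earlier results of these data known. Named genes were the called members, the sensors and transcription factors, and the highest and lowest estimate of each arm, and outside the list at most 5 called genes per group. Mthfd2, Ppp1r15a, Manf, Herpud1, Derl1, Pdia6 and P4hb were given per library in addition, after their values were seen.

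The alternatives were DESeq2 1.42.0, upper quartile scaling, library size alone, the 50 most abundant genes left out, no filter, a minimum of 10 counts per library, limma-voom (limma 3.58.1), a replicate block, an adjusted p under 0.1 and each library left out. MA-10 replicate 1 alone against STARKO1 was added after seeing the data. On simulated counts for this comparison, of 11761 genes tested and 199 changed, the test recovered 96.0% of 4-fold and 25.0% of 2-fold changes, and 6.98% of its calls were false. The simulation gave every gene the common biological coefficient of variation and had no split among the MA-10 libraries. These rates therefore need not hold for the real counts. Sequences are from RefSeq, and tables and figures were made with Python 3.11.15.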

Additional observations from a re-analysis of the deposited data

How the results depend on the processing

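The counts of calls moved with the scaling, the tool and the libraries included, and depth was not varied. Over all genes, 1079 calls became 3395 with DESeq2, 330 with library size alone, 695 with at least 10 counts in every library, 3471 at an adjusted p under 0.1 and 89 to 7990 with 1 library left out. Of the 1079 calls 513 were higher in STARKO1, and of the 330 calls 210 were. The 5 members called became 16 with DESeq2, 3 with upper quartile scaling, 1 with library size alone (Xbp1), 13 at an adjusted p under 0.1 and 0 to 29 with 1 library left out. Calls in the ATF4 arm (3) became 5 with DESeq2, 0 with library size alone and 0 to 11 with 1 library left out. In the XBP1 arm (1) they became 2 with DESeq2 and 0 to 3 with 1 library left out, in the ATF6 arm (0) 1 and 0 to 5, and among degradation genes (0) 3 and 0 to 5. Among folding genes (1) they became 5 with DESeq2, 0 with upper quartile scaling or library size alone, and 0 to 5 with 1 library left out. The 12 calls among other pathway genes became 32 with DESeq2, 2 with library size alone, 7 with limma-voom and 2 to 71 with 1 library left out.

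MA-10 replicate 1 alone against STARKO1, an alternative added after seeing the data in which the lone library is assumed to vary like the others, called 5086 genes, 23 members (8, 4, 2, 3 and 6 in the ATF4, XBP1, ATF6, degradation and folding groups) and 50 other pathway genes. In it 11 members changed sign, with log2 fold changes of -0.052 for Atf4, -0.38 for Chac1, -0.0064 for Phgdh, -0.62 for Sesn2, -0.12 for Eif2ak3, -0.061 for Edem2, -0.023 for Edem3, 0.051 for Herpud1, 0.51 for Manf, 0.10 for Derl2 and 0.20 for Canx.

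Scaling by library size alone moved the median of all genes from -0.05 to 0.38 and that of the members from -0.26 to 0.14, and turned Sec61b (0.23), Sec24d (0.018), Edem1 (0.032), Atf6 (0.25), Derl1 (0.049), Os9 (0.34) and Canx (0.32). Upper quartile scaling turned Atf6 (0.018), Os9 (0.043) and Canx (2.88e-05). With 1 library left out the members' median was -0.32 to -0.12, and the sign turned for Sec24d (-0.61 to 0.19), Edem1 (-0.52 to 0.040) and Atf6 (-0.35 to 0.20) without MA-10 replicate 1, Eif2ak3 (-0.096 to 0.42) without replicate 2, Chac1 (-0.12 to 0.63) without replicate 3 and Sesn2 (-0.19 to 0.76) without either of these. None of these turned genes was called with all libraries, and the cause was not tested. Ddit3 also lost its call with limma-voom (adjusted p = 0.0527). Over 15 settings and 40 members, 487 of 600 values kept their direction and call, 50 gained a call in the same direction, 35 lost one and 28 changed sign. Of these 28, 4 were called in the other direction (Sesn2, Manf, Chac1 and Canx, all with MA-10 replicate 1 alone).

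Same-numbered libraries did not deviate together (correlations of -0.0346, 0.0910 and -0.0160). The MA-10 libraries differed widely from each other, which could hide a shared preparation. Whether same-numbered libraries share more than their replicate number therefore cannot be told. A fit with that number as a replicate block called 234 genes (1.96%) and 1 member (Trib3, edgeR adjusted p = 0.0358), 1 call in the ATF4 arm, 0 in the XBP1 arm, 0 among folding genes and 2 among other pathway genes.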
